A study of Mus musculus with 24 samples.

Results

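The 188 genes described here are the very long genes of a mouse mammary cell line, those whose exons lie over at least 300 kb of the genome. They were chosen from the deposited table of 55341 gene names: a gene entered when the distance from its first to its last exon base was 300 kb or more and its mean raw count over the 24 libraries was at least 50. Of 616 genes of that span, 204 had such a mean count and 16 of these were left out by name (unnamed gene models, and families such as cadherins, collagens and solute carriers together with some nuclear receptors). The mean count that chose the genes is a level over all libraries and not a difference between groups. A gene of low count can still pass it through the groups where it is high. Ptprt and Elmo1 had their lowest group means without IPTG, so their rises with IPTG given below are not independent of the choice. At the limit of span, Pam (300.5 kb), Ranbp17 (302 kb), Stk3 (303 kb) and Cmss1 (305 kb) were just inside, and Akap13 (299 kb), AW554918 (298 kb), Myo1d (298 kb) and Dclk1 (297 kb) just outside. At the limit of the mean count, Ptprt (57.0), Lrmda (66.5) and Arhgef28 (66.7) were just inside, and Grip1 (49.5), Aff3 (47) and Ulk4 (46.5) just outside. All 188 passed the low-count filter of the test.

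The cells are 3134 cells, a mouse mammary adenocarcinoma line long used to study the glucocorticoid receptor. In every group a hairpin against NIPBL could be induced with IPTG, a construct had been integrated with piggyBac, and the cells were kept for 3 days in serum stripped with charcoal. The construct was an empty vector (EV), wild-type NIPBL (WT), or one of the forms named C1, C2 and C1C2, whose changes the labels do not describe. The empty vector was studied in the absence and presence of 1 mM IPTG, and all other constructs in its presence only, after 2 hours of ethanol or of 100 nM dexamethasone, a synthetic ligand of the glucocorticoid receptor. This gives 12 groups of 2 libraries. No group had IPTG without the hairpin, so an effect of the hairpin or of IPTG itself cannot be told apart from loss of NIPBL. The 2 libraries of a group are called biological replicates in the design text with no word on separate cultures, so p-values measure the spread between these samples. Replicate 2 of C1C2 in ethanol has a title that says ethanol and a treatment label that says dexamethasone. It was grouped by its title, and its values of Mid1 (2.69 CPM), Sorbs2 (0.643), Pde4b (6) and Creb5 (10.2) lie outside the range of the 12 libraries grouped as dexamethasone.

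The libraries were of total RNA depleted of ribosomal RNA and hold 32.5 M to 42.7 M counts each in ethanol and 45.0 M to 72.9 M counts in dexamethasone. Nipbl itself, the target of the hairpin, lay at 151 to 186 CPM (counts scaled to library size) in the 4 libraries without IPTG and at 48.0 to 73.3 CPM in the 20 with IPTG. Of 12 markers of mammary epithelium 7 had a median under 0.1 CPM, and Epcam and Cldn7 were at 0 in all libraries. Only Krt14, at 13.4 to 21.8 CPM, had a median of at least 1 CPM. Of 12 mesenchymal markers 10 had a median of at least 1 CPM (Vim at 3328 to 4458 CPM), and Thy1 and Col3a1 had medians of 0 and 0.07 CPM. Of 10 neuronal markers 7 had a median under 0.1 CPM. The summed epithelial markers, mostly Krt14, lay at 19.7 to 21.1 CPM without IPTG and at 15.5 to 16.3 CPM in its presence (empty vector, ethanol). The mesenchymal ones lay at 9395 to 9401 and at 8343 to 8426 CPM, and the neuronal ones at 1.03 to 1.43 and at 1.42 to 1.95 CPM. Their part in the results below was not tested. In RNA of whole cultures, fewer cells that make a transcript and less of it per cell cannot be told apart.

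Genes of this size consist almost wholly of introns. RNA polymerase II takes a long time to cross them, and their splicing goes on while they are transcribed. Many very long genes encode adhesion molecules, guidance cues, scaffolds and signalling enzymes, and many are best known from neurons. NIPBL, with its partner MAU2, puts cohesin rings on chromatin and drives the extrusion of DNA loops by them, which can bring distant enhancers near the starts of genes, and long genes often sit in wide domains with scattered enhancers.

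The span of the 188 genes ran from 300.5 to 1998 kb with a median of 410.5 kb. Exons made up 0.197% to 10.3% of the span (median 2.23%), against a median of 32.2% in genes under 30 kb chosen by the same count and name rule. Their exonic length had a median of 10.4 kb. The GC content of their longest annotated transcript had a median of 46.4%, against 51.5%, 47.2% and 47.5% in genes of 0 to 30, 30 to 100 and 100 to 300 kb. Of the 188, 186 were protein coding, and the other two were the long noncoding RNAs Mir99ahg and Pvt1. Another gene lay inside the span of 170 of them. Exons of 117 members overlapped no other exon, 15 shared bases with a gene on the same strand and 60 with one on the opposite strand, and over 10% of the exonic bases were shared in Fars2, Syn3, Gse1 (27.9%), Ldlrad4 (52.1%) and Mid1 (17.9%). The values of these 5 are uncertain to that extent, since the strand setting of the counting is not given in the sources used here. The members lay on 20 chromosomes, at most 15 on 1 of them.

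Per exonic length the members had a median of 3.55 FPKM (CPM per kb of exon, mean over the libraries), a level that the count limit of the rule bears on. The most abundant were Oxr1, which protects against oxidative damage (49.3 FPKM), Snd1, a nuclease and RNA-binding protein (31.1 FPKM), Ltbp1, which holds latent TGF-beta in the matrix (28.8 FPKM), the transcriptional regulators Rere (27.7 FPKM) and Nfib (22.5 FPKM), and the cytolinker Dst (20.5 FPKM). The longest were low: Macrod2, an ADP-ribose hydrolase (chromosome 2, 140395309 to 142392966, 1998 kb), had 0.876 FPKM, Pde4d, a cAMP phosphodiesterase (1504 kb), 0.282 FPKM, the scaffold Magi2 (1478 kb) 0.164 FPKM, Csmd3 (1211 kb) 0.663 FPKM, Ccser1 (1203 kb) 0.425 FPKM, and the receptor phosphatase Ptprt (1139 kb) 0.0964 FPKM, the lowest of all members. Together the members held 1.21% to 1.32% of the counts of a library in ethanol and 1.10% to 1.29% in dexamethasone. Over the 12 groups the highest group mean of a member was a median of 1.35 times its lowest, and it was at least 2 times in 26 members and at least 1.5 times in 55. The widest ranges were those of Sorbs2 (8.93 times), Pde4b (6.04), Mid1 (4.96), Akap6 (4.74), Inpp4b (4.33) and Sox5 (3.45).

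The first comparison asks what loss of NIPBL did to these genes, in empty-vector cells with IPTG against those without. After knockdown in ethanol the transcription factor gene Sox5 and the scaffold gene Dlgap2 fell most, and the phosphatase gene Inpp4b and the anchoring protein gene Akap6 were among those that rose most. In all, 46 members passed the test of edgeR at an adjusted p under 0.05, 17 higher and 29 lower, with 24.5% of the members called against 13.4% of all tested genes (higher 7.16%, lower 6.24%). In dexamethasone 58 members were called, 21 higher and 37 lower, which is 30.9% of the members against 16.9% of all tested genes (higher 8.36%, lower 8.49%). Not all tested genes meet the count limit set for the members. Of shorter genes that meet the same count and name rule, with spans of 0 to 30, 30 to 100 and 100 to 300 kb, 17.5%, 18.8% and 22% were called in ethanol and 21.1%, 22.4% and 28.3% in dexamethasone. In both treatments the libraries with and without IPTG did not overlap for any called member. With 2 libraries a group this largely follows from the call and is no separate support for it. The median change over the members was -0.03 on the log2 scale in ethanol and -0.05 in dexamethasone, against -0.01 and 0.00 over all tested genes. Most changes were small: 6 members in ethanol and 4 in dexamethasone changed at least 2-fold.

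The comparisons in ethanol and in dexamethasone share no library. In both, 39 members were called in the same direction, 13 higher and 26 lower, and none in opposite directions. These are 84.8% of the 46 and 67.2% of the 58. The overlap was not counted over all tested genes, so it cannot be read as particular to the members. Over the 188 members the changes in the 2 treatments had a Pearson r of 0.89, given as a description across genes, which are not independent. Leaving out replicate 2 of empty vector with IPTG in dexamethasone lowered the 58 calls to 37.

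**Figure D1:**
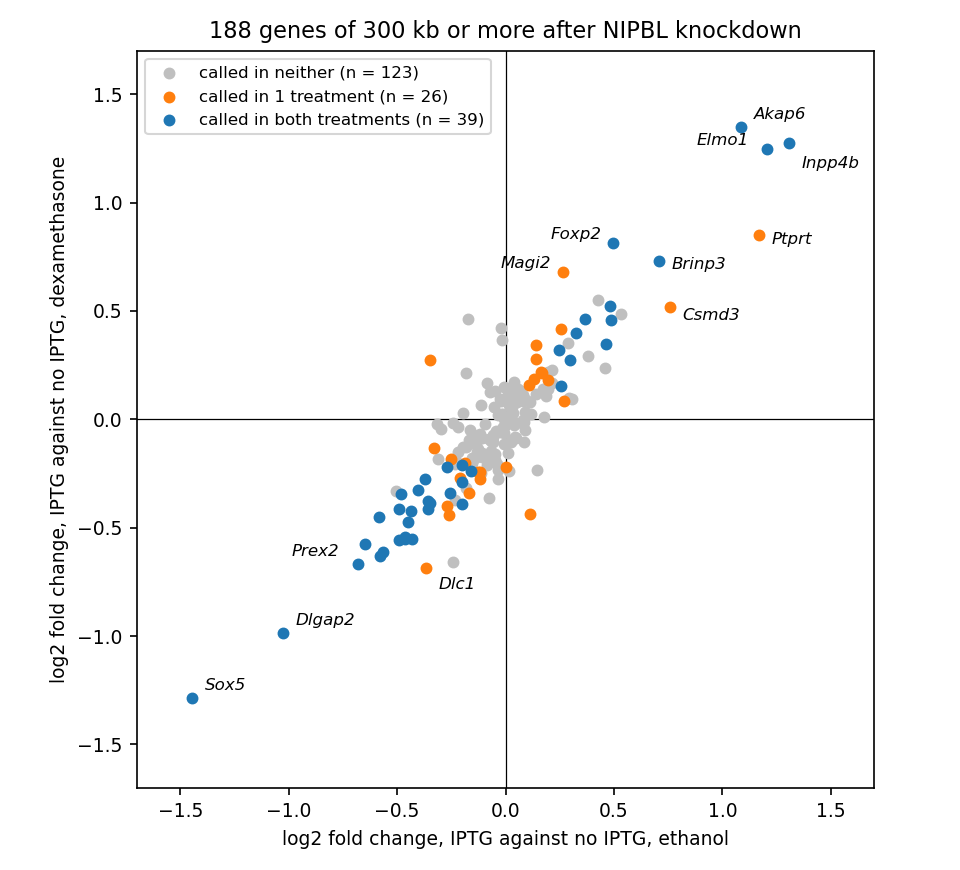
Each point is 1 of the 188 genes, with its log2 fold change after knockdown in ethanol on the x axis and in dexamethasone on the y axis, coloured by whether it was called in both treatments, in 1 or in neither. The 39 genes called in both lie in the lower left and upper right parts, from Sox5 (-1.45 and -1.29) to Inpp4b (1.31 and 1.27).

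Among 31 genes of transcription and chromatin, 3 rose and 3 fell in ethanol, and 3 rose and 5 fell in dexamethasone. Sox5, a SOX family factor known from cartilage and neurons (chromosome 6, 143828425 to 144781977), lay at 77.1 and 78.4 CPM without IPTG and at 30.1 and 26.9 CPM with it in ethanol. In dexamethasone the values were 52 and 57.9 and 24.6 and 20.5 CPM. Its libraries with and without IPTG were far apart in both treatments, with a fall of 1.45 on the log2 scale (SE 0.18, edgeR adjusted p = 0.000105) in ethanol and of 1.29 (SE 0.18, edgeR adjusted p = 0.000192) in dexamethasone. Ebf1, a factor of the B cell and fat cell lineages, fell by 0.47 (SE 0.07, edgeR adjusted p = 7.23e-05) and 0.55 (SE 0.07, edgeR adjusted p = 3.32e-06), from 59.3 and 61.3 to 44.5 and 42.7 CPM in ethanol. The forkhead repressor gene Foxp2 went the other way, from 14.1 and 14 to 21 and 18.4 CPM in ethanol (0.50, SE 0.14, edgeR adjusted p = 0.0199) and from 7.49 and 6.33 to 11.8 and 12.4 CPM in dexamethasone (0.81, SE 0.15, edgeR adjusted p = 0.000486). The ethanol call of Foxp2 was lost without replicate 1 of empty vector with IPTG (adjusted p = 0.176) and without either library without IPTG (0.12 and 0.0947).

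Kinases, phosphatases and second messenger genes gave 2 higher and 2 lower of 14 in each treatment. Inpp4b, which removes a phosphate from phosphoinositides made by PI3 kinase (chromosome 8, 81342556 to 82127914), rose from 1.33 and 1.66 to 3.39 and 3.99 CPM in ethanol and from 1.07 and 1.16 to 2.38 and 3.02 CPM in dexamethasone. The changes were 1.31 (SE 0.29, edgeR adjusted p = 0.00384) and 1.27 (SE 0.29, edgeR adjusted p = 0.00381) on the log2 scale. Each of the 2 calls was lost when 1 library was left out, replicate 1 without IPTG in ethanol (adjusted p = 0.0846) and replicate 2 with IPTG in dexamethasone (0.0654). Akap6, which anchors protein kinase A at the nuclear envelope (chromosome 12, 52699383 to 53155599), rose from 2.47 and 2.28 to 5.39 and 4.71 CPM in ethanol. In dexamethasone it rose from 1.71 and 1.96 to 4.57 and 4.82 CPM. These are changes of 1.09 (SE 0.16, edgeR adjusted p = 4.1e-05) and 1.35 (SE 0.16, edgeR adjusted p = 1.05e-06), and neither call depended on 1 library. The calcium channel gene Itpr1 fell by 0.26 and 0.34 and the cyclin-dependent kinase gene Cdk14 by 0.27 and 0.22 on the same scale.

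The promoters of 3 of these genes are shown because they were among those that moved most and have unlike starts. Each line is the 250 bases before a RefSeq start (GRCm38.p6, the build called mm10), read from 5' to 3' on the strand of the gene, with CpG dinucleotides in capitals. The windows are chr8:81342312-81342561 (plus strand) for Inpp4b, chr12:52699133-52699382 (plus strand) for Akap6 and chr6:143947107-143947356 (minus strand) for Sox5, the last of which belongs to a start inside the span of the gene.
Inpp4b: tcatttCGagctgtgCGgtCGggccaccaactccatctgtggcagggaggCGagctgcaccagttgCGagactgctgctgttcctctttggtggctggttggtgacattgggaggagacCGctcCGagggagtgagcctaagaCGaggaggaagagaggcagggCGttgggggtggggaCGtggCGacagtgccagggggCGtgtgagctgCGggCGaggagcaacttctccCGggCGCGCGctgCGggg
Akap6: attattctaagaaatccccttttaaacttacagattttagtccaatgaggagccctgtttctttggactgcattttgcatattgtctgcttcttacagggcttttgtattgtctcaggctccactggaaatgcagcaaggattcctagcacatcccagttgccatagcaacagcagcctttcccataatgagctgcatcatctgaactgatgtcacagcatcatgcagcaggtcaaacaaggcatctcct
Sox5: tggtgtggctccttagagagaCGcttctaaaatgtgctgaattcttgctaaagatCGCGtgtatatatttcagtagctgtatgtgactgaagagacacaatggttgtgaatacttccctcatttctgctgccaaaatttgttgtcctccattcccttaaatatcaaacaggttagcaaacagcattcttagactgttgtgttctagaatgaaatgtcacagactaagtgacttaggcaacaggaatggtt

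The Inpp4b window holds 19 CpG dinucleotides and 66% G or C, the Akap6 window none and 43.6%, and the Sox5 window 3 and 39.6%. RefSeq windows were found for 142 of the 188 members, 52 of them with more than 1. Of their 215 windows, 50.2% were rich in CpG (at least 50% G or C and an observed to expected ratio of CpG of at least 0.6), against 58.8% of the windows of all tested genes and 31.0% of all 32851 windows. Among the outermost windows alone, 1 for each member, it was 63.4%, with 7 of 10 in members higher after knockdown in ethanol, 12 of 21 in those lower and 71 of 111 in those not called.

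Receptors, adhesion molecules and guidance cues gave 2 higher and 5 lower of 15 in ethanol and 0 higher and 5 lower in dexamethasone. Nrg1, which encodes neuregulin, a ligand of the ErbB receptors (1069 kb), fell from 117 and 122 to 76.2 and 83.3 CPM in ethanol, by 0.58 on the log2 scale (SE 0.06, edgeR adjusted p = 4.58e-07), and by 0.45 (SE 0.06, edgeR adjusted p = 1.24e-05) in dexamethasone. Sema5a, a membrane semaphorin, fell from 50.4 and 46.9 to 32.3 and 32.8 CPM in ethanol, by 0.58 (SE 0.07, edgeR adjusted p = 1.66e-06). In dexamethasone its fall was 0.63 (SE 0.07, edgeR adjusted p = 2.09e-07). Sema3a, a secreted semaphorin, fell less, from 9.62 and 10.7 to 7.06 and 7.5 CPM in ethanol (by 0.48, SE 0.11, edgeR adjusted p = 0.00484), a call that was lost without replicate 1 with IPTG (0.0598) or replicate 2 without it (0.0618). The 2 that rose in ethanol were among the longest genes. Csmd3 went from 8.38 and 6.01 to 12.7 and 11.8 CPM and Ptprt from 0.49 and 0.642 to 1.57 and 0.93 CPM, changes of 0.76 (SE 0.20, edgeR adjusted p = 0.0153) and 1.17 (SE 0.32, edgeR adjusted p = 0.0161). Both calls depended on replicate 1 with IPTG, without which the adjusted p was 0.102 for Csmd3 and 0.302 for Ptprt. Csmd3 also lost its call without either library numbered 2 (0.139 without that lacking IPTG, 0.0544 without that with IPTG) and Ptprt without replicate 1 lacking IPTG (0.185).

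Of 23 regulators of small GTPases, 2 rose and 5 fell in ethanol and 3 rose and 5 fell in dexamethasone. Elmo1, which with DOCK proteins activates Rac, rose from 0.724 and 0.846 to 1.95 and 1.65 CPM in ethanol and from 1.07 and 0.797 to 2.22 and 2.18 CPM in dexamethasone. The changes were 1.21 (SE 0.24, edgeR adjusted p = 0.00123) and 1.25 (SE 0.22, edgeR adjusted p = 0.000197). Prex2, a Rac exchange factor, fell from 264 and 263 to 167 and 162 CPM in ethanol, by 0.68 (SE 0.11, edgeR adjusted p = 0.000366), and from 192 and 179 to 123 and 110.1 CPM in dexamethasone. Tiam1, another Rac exchange factor, fell by 0.36 and 0.41, and Fry, a large partner of NDR kinases, by 0.49 and 0.41. Dlc1 lay at 6.14 and 6.09 CPM without IPTG and at 4.04 and 3.55 CPM with it in dexamethasone, a fall of 0.69 (SE 0.18, edgeR adjusted p = 0.00918) that lost its call without replicate 2 with IPTG (adjusted p = 0.118). In ethanol its change was -0.37 with an edgeR adjusted p of 0.23.

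Cytoskeleton, junction and scaffold genes gave 3 higher and 1 lower of 30 in ethanol. The one that fell was Dlgap2, known as a scaffold of the postsynaptic density (chromosome 8, 14095865 to 14847680), at 13 and 12.3 CPM without IPTG and 6.71 and 5.7 CPM with it. In dexamethasone it lay at 14.5 and 13.4 and 7.96 and 6.13 CPM. The falls were 1.03 (SE 0.16, edgeR adjusted p = 8.94e-05) and 0.99 (SE 0.15, edgeR adjusted p = 4.91e-05) on the log2 scale, and the libraries did not overlap, as in all called members. Those that rose were Lpp, a zyxin relative at focal adhesions (0.46), the formin Fhod3 (0.33) and Cep112 (0.27), of which the call of Lpp was lost without replicate 2 of either group (adjusted p = 0.121 and 0.0818). Fhod3 lost its call without either library lacking IPTG (0.0932 and 0.0807) and without replicate 2 with IPTG (0.137). In dexamethasone 3 rose and 4 fell.

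In the matrix and glycosylation list 1 of 6 rose and 2 fell, the same counts in each treatment. Csgalnact1, which starts chondroitin sulfate chains, fell from 45.5 and 42.1 to 28.2 and 27.8 CPM in ethanol and from 42.2 and 37.7 to 27.1 and 26.4 CPM in dexamethasone, by 0.65 (SE 0.07, edgeR adjusted p = 5.42e-07) and 0.57 (SE 0.07, edgeR adjusted p = 1.39e-06). Ltbp1 fell from 370.4 and 349 to 256 and 255 CPM in ethanol (by 0.49, SE 0.07, edgeR adjusted p = 1.89e-05). The glypican gene Gpc6 rose from 32.6 and 32.4 to 44.3 and 46.9 CPM (0.49, SE 0.06, edgeR adjusted p = 5.19e-06). All 3 called genes of the 6 that bind RNA fell in both treatments: Msi2, a Musashi protein, by 0.45 and 0.47, the splicing factor Celf2 by 0.43 and 0.42, and Snd1 by 0.16 and 0.24. In the list of ubiquitin, metabolism and genome upkeep 3 and 4 of 24 fell and none rose, among them Pola1, the catalytic subunit of DNA polymerase alpha (by 0.37 and 0.27), and Gmds, the first enzyme of GDP-fucose synthesis (by 0.35 and 0.39). Channels, membrane traffic and lipid handling gave 1 higher and 2 lower of 18 in ethanol and 4 higher and 2 lower in dexamethasone. Of the 21 members in no list, Brinp3 had the largest rise in ethanol, from 61.1 and 59 to 96.5 and 99.4 CPM (0.71, SE 0.11, edgeR adjusted p = 0.000367).

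The test of whether knockdown acted differently in the 2 treatments called 0 members, against 0.171% (higher 0.0177%, lower 0.154%) of all tested genes. At an unadjusted p under 0.05 there were 7 members, and DESeq2 called 1. The smallest edgeR adjusted p was 0.0698, for the calcium channel subunit gene Cacna2d1, at 13.3 and 12.3 and 10.1 and 10.05 CPM without and with IPTG in ethanol and at 8.36 and 9.84 and 10.9 and 11.2 CPM in dexamethasone. It was called lower after knockdown in ethanol (-0.35), and its values in dexamethasone were higher with IPTG than without.

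The share of genes that fell after knockdown differed with the span of the gene. In ethanol it was 7.26% of 6106 genes under 30 kb, 10.04% of 3136 genes of 30 to 100 kb, 12.9% of 1084 genes of 100 to 300 kb and 15.4% of the 188 members, all chosen by the same count and name rule, while the share that rose was 10.2%, 8.71%, 9.13% and 9.04%. In dexamethasone the lower shares were 10.1%, 13.1%, 17.3% and 19.7%. Within the members the order did not go on. Of the 88 members of 300 to 400 kb, 2 rose and 19 fell in ethanol, of the 65 of 400 to 600 kb 10 rose and 5 fell, and of the 35 longer ones 5 rose and 5 fell. Across the 188 members the change in ethanol had a Spearman correlation of 0.11 with the log of the span, a description over genes. Exonic length and GC content also differ between the classes of span. After a smooth trend with exonic length and GC content was removed, 53 members were called in ethanol (19 higher, 34 lower) and 66 in dexamethasone (28 higher, 38 lower), and 46 of the 46 and 57 of the 58 kept their call. Here and in the later comparisons, counts under this setting are given for the members only. They therefore do not show whether the difference between the classes of span remained.

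**Figure D2:**
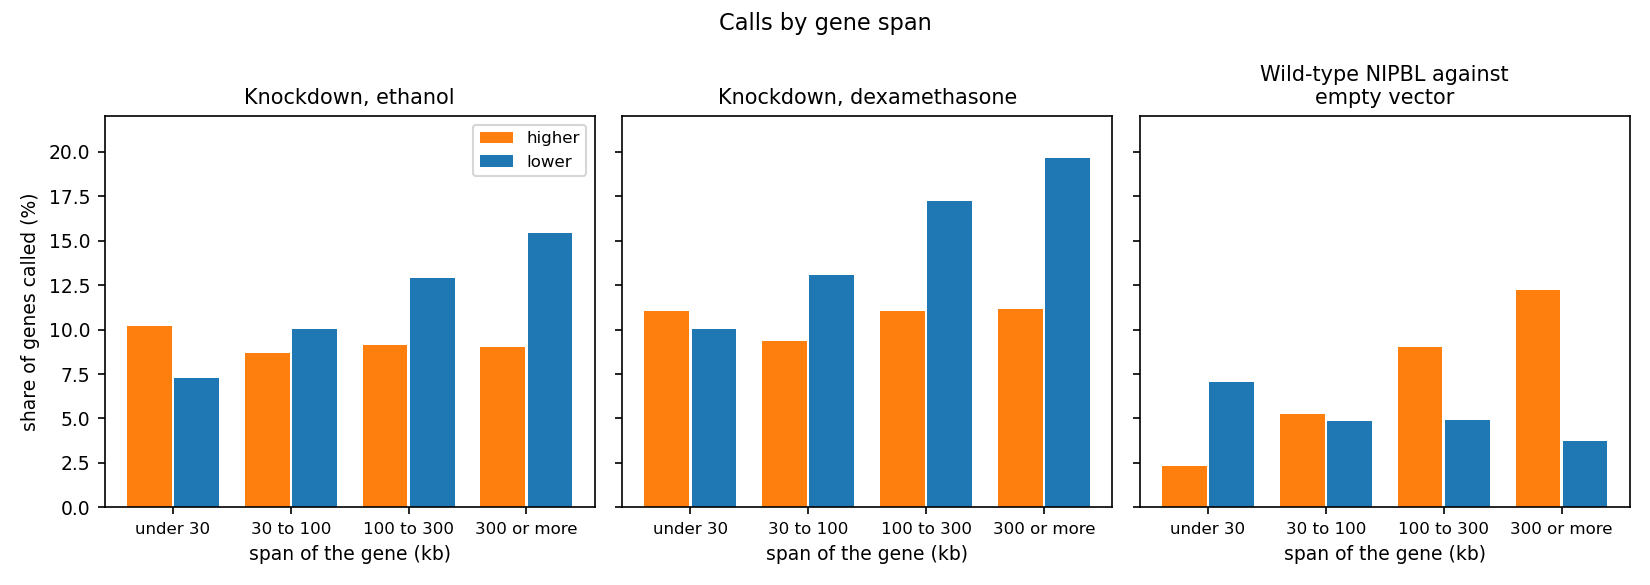
Bars give the share of genes (%) called higher (orange) and lower (blue) in 4 classes of gene span (kb), for knockdown in ethanol, knockdown in dexamethasone and wild-type NIPBL against empty vector. The lower share after knockdown in ethanol runs from 7.26% under 30 kb to 15.4% at 300 kb or more, and the higher share with wild-type NIPBL from 2.31% to 12.2%.

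The second comparison asks what wild-type NIPBL did in cells with IPTG, as the mean over both treatments of wild-type NIPBL against empty vector. Sema3a, Sox5, Dlgap2 and Ebf1 rose, and Inpp4b, Foxp2 and Fam110b fell. In all 30 members were called, 23 higher and 7 lower, 15.96% of the members against 8.65% of all tested genes (higher 4.19%, lower 4.45%). Nipbl counts did not show the added construct: they lay at 55.1 to 70.4 CPM with wild-type NIPBL and at 54.4 to 65.1 CPM with empty vector (0.09 on the log2 scale, SE 0.07, edgeR adjusted p = 0.448), and 2.62-fold below the libraries without IPTG. Whether transcripts of the construct would be counted under Nipbl is not given in the sources used here. After removal of the trend with length and GC content 37 were called, 22 higher and 15 lower. The shares called higher were 2.31%, 5.23% and 9.04% in genes of 0 to 30, 30 to 100 and 100 to 300 kb and 12.2% in the members, and the shares called lower 7.08%, 4.85%, 4.89% and 3.72%. Within the members there was no steady order. Of the 88 members of 300 to 400 kb, 15 rose and 1 fell. Of the 65 of 400 to 600 kb 1 rose and 3 fell, and of the 35 longer ones 7 rose and 3 fell. The count of 30 called members moved in both directions when single libraries were left out. It fell without either library of empty vector in ethanol or replicate 2 of that construct in dexamethasone. It also fell without replicate 1 of wild-type NIPBL in either treatment, and rose without replicate 2 of wild-type NIPBL in dexamethasone.

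Sox5 lay at 52.5 and 45.8 CPM with wild-type NIPBL in ethanol, between the 30.1 and 26.9 CPM of empty vector with IPTG and the 77.1 and 78.4 CPM without IPTG, and at 39.2 and 34.8 CPM in dexamethasone. It was 0.75 (SE 0.13, edgeR adjusted p = 0.00235) above empty vector with IPTG and, against the libraries without IPTG, had fallen by 0.62 (SE 0.12, edgeR adjusted p = 0.00313) on the log2 scale. Dlgap2 had the same order, at 9.87 and 8.73 CPM in ethanol and 10.4 and 8.88 CPM in dexamethasone, 0.52 (SE 0.11, edgeR adjusted p = 0.00418) above empty vector. Ebf1 (0.38, SE 0.05, edgeR adjusted p = 2.05e-05), Ltbp1 (0.31, SE 0.05, edgeR adjusted p = 0.000156) and Nrg1 (0.19, SE 0.04, edgeR adjusted p = 0.0071) were also higher. The comparisons with empty vector share its libraries with the knockdown comparisons, so these values are given side by side only.

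Sema3a went beyond its level without IPTG. It lay at 15.1 and 13.4 CPM with wild-type NIPBL in ethanol against 7.06 and 7.5 CPM with empty vector and 9.62 and 10.7 CPM without IPTG, and in dexamethasone at 10.8 and 10.5 against 5.88 and 5.34 and 7.07 and 7.16 CPM. The libraries of wild-type NIPBL lay above both other groups in each treatment. The rise over empty vector was 0.95 (SE 0.08, edgeR adjusted p = 1.44e-08) and that over the libraries without IPTG 0.54 (SE 0.08, edgeR adjusted p = 1.79e-05) on the log2 scale. Etl4 rose after knockdown and was higher again with wild-type NIPBL, at 11.6 and 11.4 CPM without IPTG, 15.3 and 16.9 CPM with empty vector and 19.7 and 20.1 CPM with wild-type NIPBL in ethanol (0.35 over empty vector, SE 0.06, edgeR adjusted p = 0.000211). Inpp4b lay at 2.21 and 2.08 CPM in ethanol, where against empty vector it fell by 0.63 (SE 0.19, edgeR adjusted p = 0.043), a call that each of the 8 libraries compared could undo when left out (adjusted p up to 0.161, without replicate 2 of empty vector in dexamethasone).

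Against the libraries without IPTG, 49 members differed with wild-type NIPBL, 23 higher and 26 lower, 26.1% of the members against 16.6% (higher 7.23%, lower 9.36%) of all tested genes. Shorter genes under the same count and name rule were called at 22.5%, 21.7% and 25.4% (0 to 30, 30 to 100 and 100 to 300 kb). Ptprt (1.22, SE 0.22, edgeR adjusted p = 0.000318), Akap6 (0.95, SE 0.11, edgeR adjusted p = 2.06e-06) and Etl4 (0.85, SE 0.06, edgeR adjusted p = 1.98e-10) were the highest above them. Sox5, Sema5a (-0.50), Dlgap2 (-0.49), Csgalnact1 (-0.45) and Dip2c (-0.45) were the furthest below. Over all constructs, 24 members lay lower in each of the 10 libraries with IPTG than in both without it, in each treatment, and 19 lay higher. Neither number was counted over all tested genes, so they cannot be read as particular to the members. Akap6 is one of the 19: its 10 libraries with IPTG in ethanol ran from 3.93 to 9 CPM (median 6.48) against 2.47 and 2.28 CPM. Sox5 is one of the 24: its 10 libraries ran from 26.9 to 52.5 CPM (median 32.5) against 77.1 and 78.4 CPM.

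**Figure D3:**
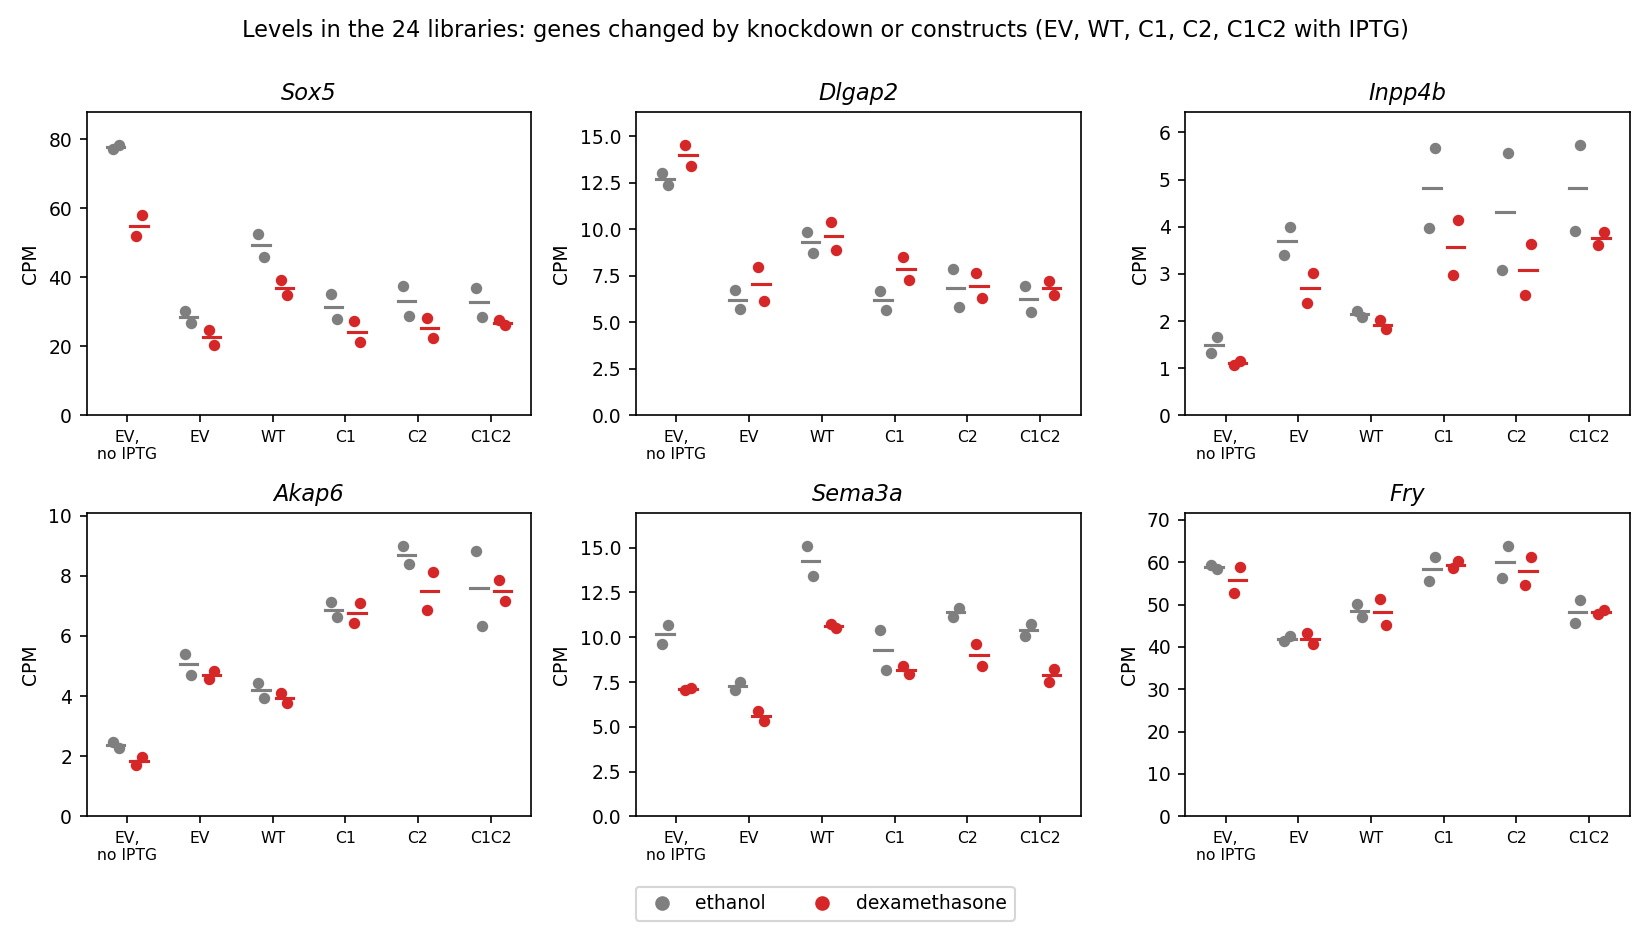
Points are the 24 libraries and short lines the group means, in CPM on axes that start at 0, for 6 genes in empty vector without IPTG and in the 5 constructs with IPTG, after ethanol (grey) and dexamethasone (red). Sox5 and Dlgap2 are highest without IPTG and next highest with wild-type NIPBL, Akap6 is highest in C1, C2 and C1C2, and Sema3a is highest with wild-type NIPBL.

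Against empty vector the forms C1, C2 and C1C2 differed in fewer members than wild-type NIPBL, and in fewer of all tested genes too. C1 gave 9 calls (6 higher, 3 lower), C2 14 (12 higher, 2 lower) and C1C2 3 (3 higher, 0 lower). These are 4.79%, 7.45% and 1.60% of the members, beside 1.43% (higher 0.685%, lower 0.75%), 3.87% (higher 2.11%, lower 1.76%) and 0.437% (higher 0.307%, lower 0.13%) of all tested genes. Shorter genes under the same count and name rule (0 to 30, 30 to 100 and 100 to 300 kb) were called at 1.41%, 1.85% and 2.31% for C1, 5.11%, 5.74% and 4.8% for C2 and 0.344%, 0.351% and 1.01% for C1C2. With the trend of length and GC content removed the splits were 5 higher and 9 lower, 12 and 5, and 4 and 4. Akap6 rose further in all 3 forms: its C1 libraries lay at 6.44 to 7.12 CPM, those of C2 at 6.85 to 9 CPM and those of C1C2 at 6.34 to 8.83 CPM, against 4.57 to 5.39 CPM with empty vector. The ranges did not overlap, which the rule for naming genes itself asks for within each treatment. The differences were 0.48 (SE 0.10, edgeR adjusted p = 0.00749), 0.73 (SE 0.10, edgeR adjusted p = 7.35e-05) and 0.63 (SE 0.10, edgeR adjusted p = 0.00141) on the log2 scale. The call in C1 was lost without replicate 2 of empty vector in ethanol (adjusted p = 0.0653). Sema3a was higher in each form too (0.45, 0.67 and 0.50, edgeR adjusted p = 0.00192, 1.11e-05 and 0.00147). Single libraries moved the counts: for C1 it was 4 without replicate 2 of empty vector in ethanol and 5 without replicate 1 of empty vector in ethanol, either of empty vector in dexamethasone, or replicate 2 of C1 in ethanol. For C2 it was 9 without either library of empty vector in ethanol and 7 without replicate 2 of empty vector in dexamethasone or of C2 in either treatment. For C1C2 it was 2 at the lowest, without replicate 1 of C1C2 in dexamethasone.

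Fry, a cofactor of NDR kinases, was higher in C1 and C2. It lay at 59.3 and 58.5 CPM without IPTG in ethanol, at 41.3 and 42.5 CPM with empty vector, at 55.5 and 61.2 CPM in C1, at 56.2 and 64 CPM in C2 and at 45.6 and 51 CPM in C1C2. The differences from empty vector were 0.49 (SE 0.05, edgeR adjusted p = 7.91e-06) and 0.49 (SE 0.05, edgeR adjusted p = 6.71e-06), and in C1C2 0.20 with an adjusted p of 0.114. Nhs, an actin regulator named for Nance-Horan syndrome, showed the same: 12.2 to 13.6 CPM in C1 and 13.1 to 14.5 CPM in C2 against 9.72 to 11.5 CPM with empty vector and 10.1 to 11.3 CPM in C1C2. Its differences were 0.31 (SE 0.06, edgeR adjusted p = 0.004) and 0.40 (SE 0.06, edgeR adjusted p = 0.000252). C1C2 was not tested against C1 or C2. Cntn3, a contactin, was higher in C2 (0.69, SE 0.16, edgeR adjusted p = 0.0176), a call that was lost when any 1 of 5 libraries was left out (adjusted p up to 0.0797). The phosphodiesterase gene Pde4b was lower in C1 and C2 (-0.48 and -0.54), and that call was lost in C1 without any 1 of the 8 libraries (adjusted p up to 0.226) and in C2 without any 1 of 4 (up to 0.0977).

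Set against wild-type NIPBL instead, C1 differed in 38 members (16 higher, 22 lower), C2 in 35 (17 higher, 18 lower) and C1C2 in 22 (8 higher, 14 lower). These are 20.2%, 18.6% and 11.7% of the members, beside 9.66% (higher 5.24%, lower 4.41%), 12.9% (higher 6.87%, lower 5.98%) and 4.86% (higher 2.67%, lower 2.19%) of all tested genes. Shorter genes under the same count and name rule (0 to 30, 30 to 100 and 100 to 300 kb) were called at 11%, 13% and 17.3%, at 15.8%, 15.8% and 18% and at 5.6%, 6.63% and 10.3%. The count for C1 was 19, 24 and 23 without replicate 2 of C1 in ethanol, replicate 2 of C1 in dexamethasone and replicate 2 of wild-type NIPBL in ethanol. For C2 it was 22 and 17 without replicate 2 of C2 in ethanol and in dexamethasone, and for C1C2 14 when the second of these wild-type libraries in ethanol was left out. Sox5 lay at 27.8 to 37.5 CPM in the 6 libraries of the forms in ethanol and at 21.1 to 28.1 CPM in dexamethasone, under both libraries of wild-type NIPBL in each treatment (52.5 and 45.8, then 39.2 and 34.8 CPM). The differences were -0.63 in C1 (SE 0.12, edgeR adjusted p = 0.0058), -0.56 in C2 (SE 0.12, edgeR adjusted p = 0.0113) and -0.53 in C1C2 (SE 0.12, edgeR adjusted p = 0.0282). The C1C2 call was lost without any 1 of 6 libraries (adjusted p up to 0.126), and that of C2 without any 1 of 3 (up to 0.0620). Inpp4b was higher in all 3 forms, by 1.02, 0.84 and 1.07 (edgeR adjusted p = 0.00106, 0.00642 and 0.00145), with its 12 libraries at 2.55 to 5.74 CPM against 1.82 to 2.21 CPM with wild-type NIPBL. Psd3, an exchange factor for Arf6, was lower, at 8.57 to 11.6 CPM against 13.2 to 16 CPM (-0.46, -0.61 and -0.39, edgeR adjusted p = 0.00028, 1.21e-05 and 0.00282). Sema3a was lower than with wild-type NIPBL as well (-0.50, -0.28 and -0.44), and so lay between empty vector and wild-type NIPBL.

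The third question is how the genes answered 2 hours of dexamethasone. Mid1 and Sorbs2 rose and Pde4b, Creb5, Mir99ahg and Mecom fell in every state of NIPBL tested. Without IPTG 71 members were called, 28 higher and 43 lower, 37.8% of the members against 38% of all tested genes (higher 19.8%, lower 18.2%). In empty vector with IPTG there were 55 calls (17 higher, 38 lower, background 32.5%, higher 17.1% and lower 15.4%), with wild-type NIPBL 52 (22 higher, 30 lower, background 28.5%, higher 14.8% and lower 13.7%), and in the mean of C1, C2 and C1C2 99 (45 higher, 54 lower, background 52.2%, higher 27.1% and lower 25%), which rests on 12 libraries instead of 4. Of shorter genes under the same count and name rule (0 to 30, 30 to 100 and 100 to 300 kb), 49.1%, 54.6% and 48.2% were called without IPTG, 42.3%, 46.6% and 42.3% in empty vector with IPTG, 35.9%, 41.1% and 37.5% with wild-type NIPBL and 64.3%, 68.2% and 63.5% in the forms, and the shares of the members (37.8%, 29.3%, 27.7% and 52.7%) were below each of these, a description with no test. At least 2-fold changes were few, with 7, 5, 4 and 5 members. Without replicate 2 of empty vector with IPTG in ethanol the 55 calls became 36, and the 52 became 33 when replicate 1 of wild-type NIPBL in ethanol was left out.

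The libraries of the 2 treatments also differed by GC content. Genes of high GC content differed from genes of low GC content by -0.25 to -0.15 on the log2 scale in the ethanol libraries and by 0.09 to 0.27 in the dexamethasone libraries, each against the mean of all libraries. The library names run in separate blocks of numbers for the 2 treatments, so that a difference in preparation and the treatment cannot be told apart. Across the 188 members the response without IPTG had a Spearman correlation of 0.49 with GC content, a description over genes. With the trend of length and GC content removed, 49 members were called without IPTG (28 higher, 21 lower), and 33 of the 71 kept their call. The other splits became 23 higher and 22 lower in empty vector with IPTG, 24 and 21 with wild-type NIPBL, and 48 and 36 in the forms. Under that setting lower calls did not outnumber higher ones in any of the 4.

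The 4 comparisons share no library. Of the members, 15 were higher and 27 lower in all 4 comparisons, none was called in opposite directions, and 83 were called in none. In 23 members the 12 ethanol and the 12 dexamethasone libraries did not overlap, whatever the construct. None of these counts was made over all tested genes, so they cannot be read as particular to the members. For Mid1, a ubiquitin ligase bound to microtubules (chromosome X, 169685199 to 170005736), the 12 ethanol libraries ran from 1.91 to 2.74 CPM (median 2.53) and the 12 dexamethasone libraries from 6.28 to 11.9 CPM (median 8.39). For Sorbs2, an adaptor of actin fibres (chromosome 8, 45507788 to 45827906), the 12 ethanol libraries ran from 0.643 to 2.1 CPM (median 1.58) and the 12 dexamethasone libraries from 3.34 to 8.19 CPM (median 5.56). Their rises without IPTG were 2.25 (SE 0.16, edgeR adjusted p = 4.76e-11) and 1.97 (SE 0.27, edgeR adjusted p = 1.28e-05) on the log2 scale. In empty vector with IPTG they were 1.71 and 1.55, with wild-type NIPBL 1.90 and 2.04, and in the forms 1.60 and 1.93. Mid1 lay at 11.9 and 10.8 CPM without IPTG and 8.36 and 8.41 CPM with IPTG in dexamethasone, a called difference of -0.44 (SE 0.14, edgeR adjusted p = 0.0319). The difference between its responses with and without IPTG did not pass the test (-0.55, SE 0.24, adjusted p = 0.905).

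Among 31 transcription and chromatin genes, 5 rose and 10 fell without IPTG. For Creb5, a factor that binds cAMP response elements, the 12 ethanol libraries ran from 9.19 to 11.4 CPM (median 9.92) and the 12 dexamethasone libraries from 3.67 to 4.85 CPM (median 4.13). For Mecom, a zinc finger factor of blood stem cells, the 12 ethanol libraries ran from 16.6 to 20.5 CPM (median 18.7) and the 12 dexamethasone libraries from 9.41 to 12.1 CPM (median 11.6). Neither overlaps between the treatments. Creb5 fell by 1.44 (SE 0.12, edgeR adjusted p = 3.2e-10) and Mecom by 1.06 (SE 0.08, edgeR adjusted p = 1.48e-10) without IPTG. In empty vector with IPTG the falls were 1.26 and 0.66 on the same scale. Foxp2 fell by 1.02 (SE 0.15, edgeR adjusted p = 1.21e-05) and its relative Foxp1 rose by 0.38 (SE 0.06, edgeR adjusted p = 1.3e-05). Zbtb7c, a BTB zinc finger gene, fell by 0.86 (SE 0.10, edgeR adjusted p = 3.44e-07), and Runx2, the factor of bone formation, by 0.42 (SE 0.07, edgeR adjusted p = 1.72e-05). Gse1, part of a corepressor complex, rose from 37.2 and 37.4 to 56.3 and 63.5 CPM (0.69). In no list, Zfp697, a zinc finger gene, rose from 23.3 and 20.6 to 34 and 34.8 CPM (0.65, SE 0.09, edgeR adjusted p = 1.55e-06).

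Kinases, phosphatases and second messenger genes gave 0 higher and 3 lower of 14. The largest fall of all members was that of Pde4b, which breaks down cAMP (chromosome 4, 102087543 to 102607259): the 12 ethanol libraries ran from 4.82 to 10.4 CPM (median 7.21) and the 12 dexamethasone libraries from 1.41 to 2.46 CPM (median 2.04). Without IPTG it fell by 1.93 (SE 0.17, edgeR adjusted p = 1.34e-09), and in empty vector with IPTG, wild-type NIPBL and the forms by 1.75, 1.98 and 1.84. The noncoding Mir99ahg, host of the miR-99a and let-7c microRNAs, fell from 2.89 and 2.33 to 0.578 and 1.07 CPM (-1.64, SE 0.29, edgeR adjusted p = 7.74e-05). With wild-type NIPBL its fall was 0.80 (SE 0.27, edgeR adjusted p = 0.0265), a call that was lost after removal of the trend with length and GC content (adjusted p = 0.0941) and without any 1 of 3 libraries (up to 0.171). The difference between these 2 responses was not tested.

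Of 15 receptors, adhesion molecules and guidance cues 4 rose and 4 fell without IPTG. Slit2, the ligand of ROBO receptors, fell from 22.7 and 24.1 to 14.7 and 15.4 CPM, by 0.64 (SE 0.09, edgeR adjusted p = 6.89e-06). Nrg1 fell from 117 and 122 to 80.1 and 83.4 CPM, by 0.55 (SE 0.06, edgeR adjusted p = 1.27e-07). Of 30 cytoskeleton and scaffold genes 5 rose and 5 fell, with Frmd4a, a partner of the PAR polarity proteins, higher (0.41) and the formin Fmn1 lower (-0.46). In the other lists 3 of 23 GTPase regulators rose and 4 fell, 2 of 6 matrix genes rose and none fell, 1 of 6 RNA binding genes rose and 3 fell, and 4 of 24 genes of ubiquitin, metabolism and genome upkeep rose and 5 fell. Of the 24 genes of largest change without IPTG, 15 kept their call after removal of the trend. Sox5, Sema3a, Prex2 and Trappc9 were among those that did not.

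**Figure D4:**
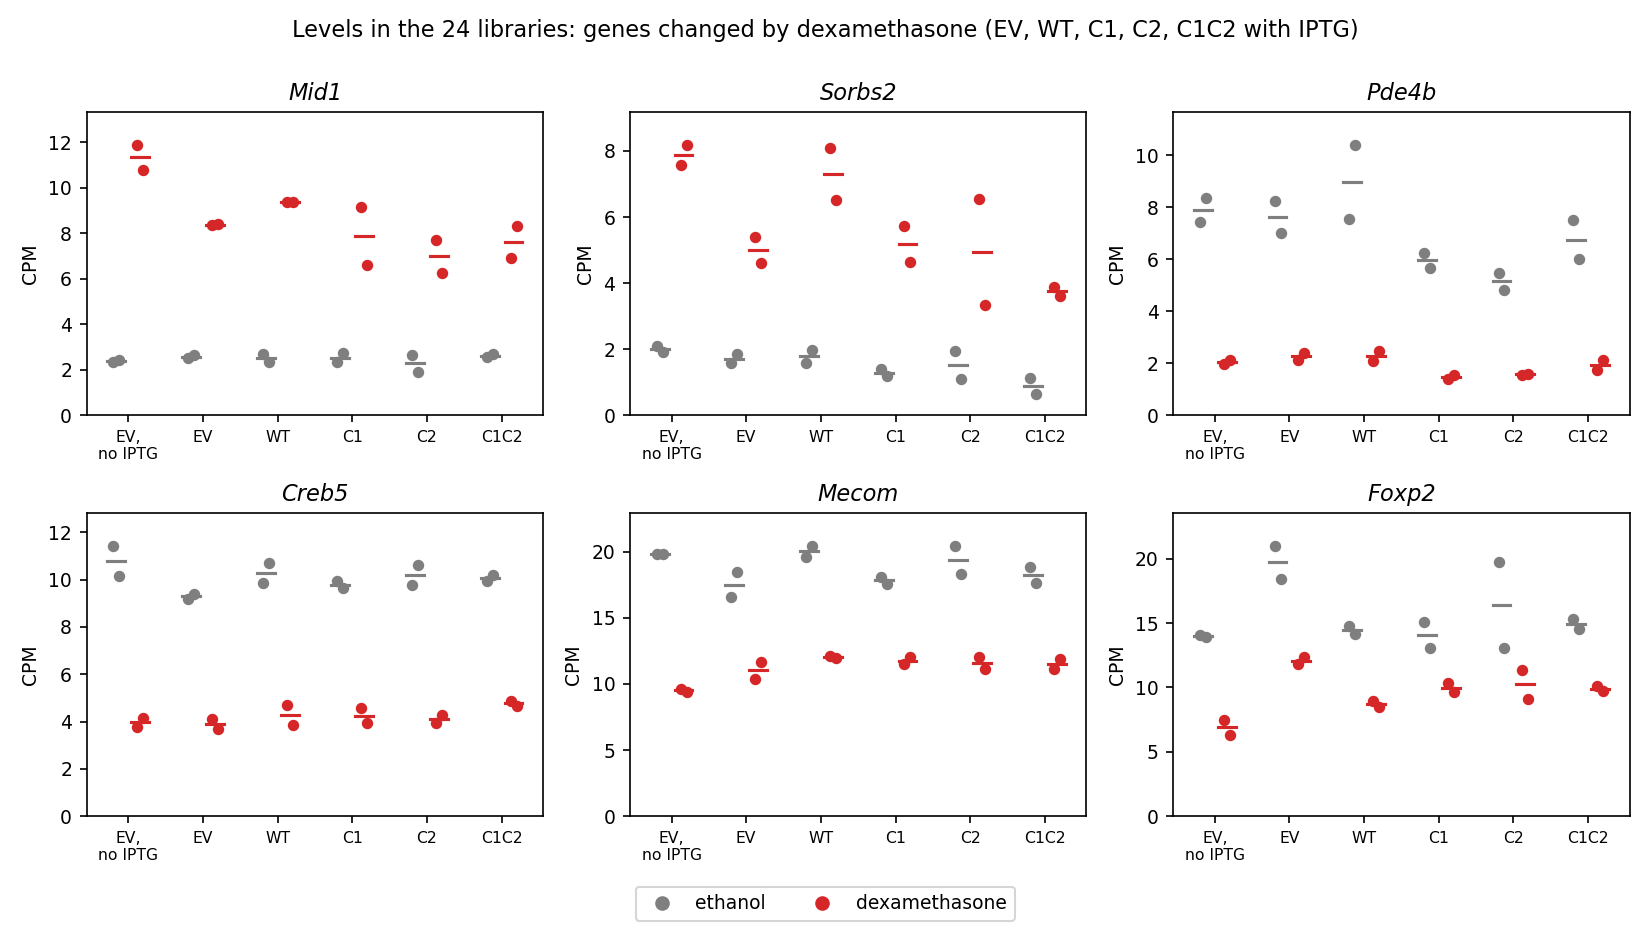
Points are the 24 libraries and short lines the group means, in CPM on axes that start at 0, for 6 genes in empty vector without IPTG and in the 5 constructs with IPTG, after ethanol (grey) and dexamethasone (red). For each of the 6 the dexamethasone libraries lie wholly above (Mid1, Sorbs2) or wholly below (Pde4b, Creb5, Mecom, Foxp2) the ethanol libraries.

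**Figure D5:**
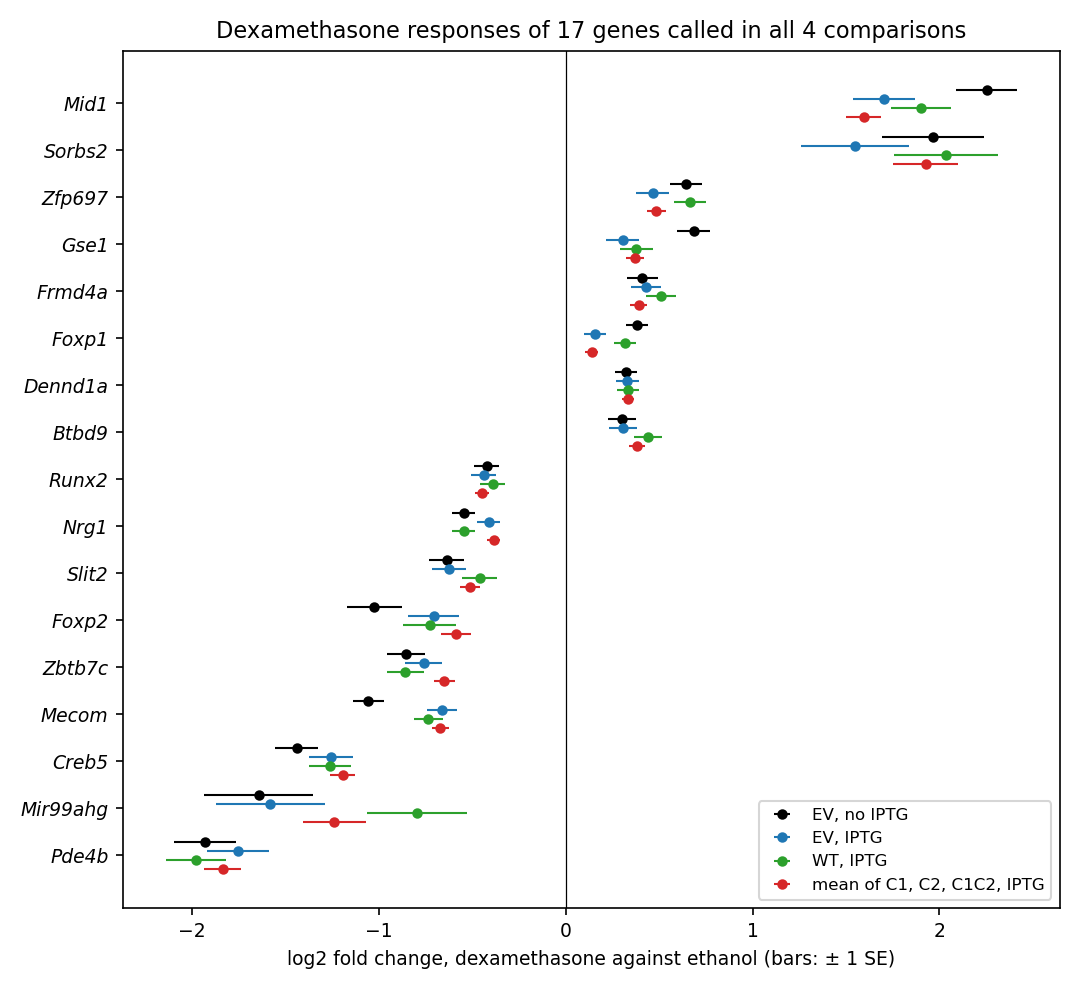
Points are log2 fold changes of dexamethasone against ethanol with bars of 1 SE on each side, for 17 genes called in all 4 comparisons, in empty vector without IPTG (black), empty vector with IPTG (blue), wild-type NIPBL (green) and the mean of C1, C2 and C1C2 (red). Mid1 runs from 1.60 to 2.25 and Pde4b from -1.98 to -1.75. The 17 were picked from genes called in the same direction in all 4 comparisons, so their shared direction follows from the choice.

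The glucocorticoid receptor binds pairs of the hexamer AGAACA and its reverse complement TGTTCT. The windows that hold this hexamer at starts of Sorbs2, which rose, and of Pde4b, which fell, are shown with the hexamer in capitals (RefSeq, GRCm38.p6, 250 bases before the start, all on the plus strand). They are chr8:45507538-45507787 and chr8:45661743-45661992 for Sorbs2 and chr4:102421305-102421554 and chr4:102589593-102589842 for Pde4b.
Sorbs2 upstream: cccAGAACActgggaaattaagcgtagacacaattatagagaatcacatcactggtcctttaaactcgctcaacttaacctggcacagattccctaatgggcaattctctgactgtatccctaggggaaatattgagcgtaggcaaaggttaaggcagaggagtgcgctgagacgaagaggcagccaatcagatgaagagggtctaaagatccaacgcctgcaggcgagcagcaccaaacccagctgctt
Sorbs2 downstream: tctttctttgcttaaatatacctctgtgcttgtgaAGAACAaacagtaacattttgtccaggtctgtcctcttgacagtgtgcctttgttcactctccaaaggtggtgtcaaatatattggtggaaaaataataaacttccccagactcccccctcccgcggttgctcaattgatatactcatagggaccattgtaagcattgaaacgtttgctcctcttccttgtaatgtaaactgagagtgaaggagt
Pde4b upstream: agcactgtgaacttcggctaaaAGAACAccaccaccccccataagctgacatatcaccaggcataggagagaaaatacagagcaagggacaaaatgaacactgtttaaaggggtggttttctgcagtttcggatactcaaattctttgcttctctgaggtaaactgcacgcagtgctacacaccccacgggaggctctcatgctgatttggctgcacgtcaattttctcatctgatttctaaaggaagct
Pde4b downstream: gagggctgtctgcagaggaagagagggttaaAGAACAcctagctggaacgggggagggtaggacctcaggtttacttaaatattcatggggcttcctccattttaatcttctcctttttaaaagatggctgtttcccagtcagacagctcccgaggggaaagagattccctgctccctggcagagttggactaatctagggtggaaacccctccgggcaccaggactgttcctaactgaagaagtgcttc

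Each of the 4 windows holds the hexamer 1 time, counting both strands. The 2 genes were picked for display, and any windows of theirs without the hexamer were left out. The hexamer was in 17 of the 215 windows of members (7.91%), in 10.97% of the windows of tested genes and in 16.1% of all windows. Among outermost windows it was in 2 of 22 members higher in dexamethasone without IPTG, 4 of 31 lower and 6 of 89 not called. The full site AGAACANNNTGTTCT was in none of the member windows and in 0.00913% of all windows. A match is a description of these letters only.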

How the data were processed

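RNA of 24 libraries in 12 groups of 2 was sequenced after ribosomal RNA depletion with a stranded total RNA kit, per the labels' protocols. The authors deposited a table of raw counts per gene. The submitters' processing notes name bcl2fastq 2.20, cutadapt 1.18, STAR 2.7.0f, featureCounts, Subread 2.0.3 and the build mm10. The annotation release, strand setting and treatment of reads with several places are not given in the sources used here. Span and exonic length were taken from the exon coordinates in the table. GC content is that of the longest transcript of each gene name in GENCODE vM21. This release had the same coordinates for 55298 of 55341 gene names and for all 188 members.

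The members and the role lists were chosen with earlier results of these data known. Of the role assignments, some were added after the names of the members and some after their values were seen. The counts were tested as deposited with edgeR 4.0.16 in R 4.3.3 (TMM normalization, filterByExpr, robust quasi-likelihood fit of 12 group means). P-values were adjusted by Benjamini-Hochberg over all 16934 genes tested, with calls made below 0.05. The fit was tested on simulated data. CPM are counts scaled by TMM library sizes, and FPKM divide them by exonic length. Construct comparisons average both treatments.

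Genes were named by rule: called members of mean CPM at least 1 whose groups did not overlap, up to 12 a direction by size of change in knockdown and dexamethasone comparisons and up to 6 in construct comparisons, the 6 longest, the 6 highest in FPKM, the 4 genes on each side of the span limit and up to 4 called members of each role list. Genes just inside and outside the count limit, and those sharing over 10% of their exonic bases, were named after their values were seen. Promoters came from RefSeq (GRCm38.p6). Alternatives were other filters, RLE scaling, DESeq2 1.42.0, a replicate block, removal of a trend with exonic length and GC content, fits of the compared libraries alone, other limits of span and count, both treatments of the library with conflicting labels, and leaving out each library in turn. Some items are not reported here.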

Additional observations from a re-analysis of the deposited data

Results flagged for a closer look

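For Magi2, a scaffold of cell junctions, the dexamethasone libraries lay above the ethanol libraries in 1 state and below them in another, with no overlap in either. In empty vector with IPTG it lay at 2.28 and 2.22 CPM in ethanol and at 2.38 and 2.56 CPM in dexamethasone, a difference that did not pass the test (0.14 on the log2 scale, edgeR adjusted p = 0.608). With wild-type NIPBL it lay at 2.11 and 2.16 CPM and at 1.45 and 1.34 CPM (-0.61, edgeR adjusted p = 0.0137), a call that was lost when replicate 2 of that construct was left out in ethanol (0.0648) or in dexamethasone (0.0723) and with only the libraries compared (0.107). The response with wild-type NIPBL less that in empty vector was -0.74. For Nhs the libraries lay the other way round, at 10.6 and 11.5 CPM in ethanol and 9.72 and 9.86 CPM in dexamethasone in empty vector, and at 10.3 and 9.89 and at 10.6 and 10.5 CPM with wild-type NIPBL, a difference of 0.23, and neither response passed the test (edgeR adjusted p = 0.138 and 0.662). The differences between the 2 states were not tested.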

How the results depend on the processing

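Of 299 alternative counts of called members, 243 stayed within 1.5 times the reported count. The 222 named calls, each recomputed under its alternatives, gave 3620 values, of which none reversed direction and 299 fell short of the threshold. Leaving out 1 library gave 31 to 34 calls for knockdown in ethanol, 37 to 51 for knockdown in dexamethasone, 0 to 1 for their difference, 51 to 56, 36 to 46, 33 to 46 and 88 to 96 for dexamethasone without IPTG, in empty vector with IPTG, in wild-type NIPBL and in the forms, 13 to 38 for wild-type NIPBL, 4 to 7 for C1, 7 to 15 for C2 and 2 to 4 for C1C2 against empty vector, 19 to 32, 17 to 35 and 14 to 24 for C1, C2 and C1C2 against wild-type NIPBL, and 37 to 44 for wild-type NIPBL against no IPTG. The labels give no shared origin for libraries of the same replicate number, and the numbers were not taken as pairs: correlations of the differences between numbered libraries ran from -0.318 to 0.548, over 0.1 in 38 of 66 pairs of groups, and from 0.147 to 0.395 among the ethanol groups other than C2. With a replicate block the counts were 46 for wild-type NIPBL, 18 for C1, 25 for C2 and 15 for C1C2 against empty vector and 1 for the difference of knockdown, and with a block within each treatment 18, 23 and 14 for the forms and 2 for the difference. With no filter on low counts C1, C2 and C1C2 gave 20, 23 and 19 and the difference 2. A strict filter gave 5 for C1. Removal of the length and GC trend gave 14 for C1 and 8 for C1C2. With only the libraries compared the counts were 21 for C1 and 20 for C1C2 against empty vector and 19 for C2 against wild-type NIPBL. DESeq2 gave 15 for C1, 6 for C1C2 and 1 for the difference. With the library of conflicting labels moved to dexamethasone the counts were 30 for dexamethasone in wild-type NIPBL, 9 for wild-type NIPBL, 5 for C1 and 7 for C2 against empty vector, and 19, 17 and 6 for C1, C2 and C1C2 against wild-type NIPBL. In members of at least 500 kb, 0% were called for C1C2 against empty vector and 20.3% against wild-type NIPBL. The cause was not tested. With 2 libraries a group, small changes in low genes such as Ptprt and Magi2 were near the limit of detection.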
